A study of Arabidopsis thaliana with 16 samples.

Results

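*DOG1* and its 4 DOG1-LIKE genes, *DOGL1*, *DOGL2*, *DOGL3* and *DOGL4*, were followed through 16 3'RNA-seq libraries of Arabidopsis seeds, with weight on the DOGL genes. The family was taken by locus: AT5G45830 (*DOG1*), AT4G18660 (*DOGL1*), AT4G18680 (*DOGL2*), AT4G18690 (*DOGL3*) and AT4G18650 (*DOGL4*), 5 of the 37336 loci in the count files. All 5 were among the 12697 loci that passed the filter on low counts. The seeds were *dog1-3*, the SALK_000867 insertion line of *DOG1*, or wild type (WT) of the Col-0 accession. They were imbibed for 72 h at 4°C, starting 1 day after harvest, on Murashige and Skoog agar with 100 mM NaCl or on the same agar without it (mock). The groups were *dog1-3* NaCl, *dog1-3* mock, WT NaCl and WT mock, with 4 biological replicates each. *dog1-3* is a single insertion line, so that a change shared by its libraries cannot be told apart from another difference carried by that line.

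*DOG1* is a central regulator of seed dormancy in Arabidopsis, and the amount of its protein in the dry seed sets how long the seed stays dormant. It acts together with the abscisic acid (ABA) pathway by binding the clade A protein phosphatases AHG1 and AHG3, which hold back ABA signalling in seeds. The DOGL genes encode proteins related to *DOG1*, and much less is known of them. *DOGL4* has been described in Arabidopsis as an inducer of seed reserve genes, and the reference annotation notes it as an imprinted gene expressed from the maternal copy.

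The libraries held from 1416354 to 3635844 counts. All 9 seed storage and oil body markers (cruciferins, SESA albumins and oleosins) were detected, while the leaf markers CAB1 and CAB3 had at most 5 and 2 counts in any library, although RBCS1A had from 828 to 2129. The 4 leaf markers (with RCA) summed to 836 to 1025 CPM in *dog1-3* NaCl, against 561 to 646 CPM in WT NaCl, and to 490 to 583 CPM in *dog1-3* mock, against 373 to 456 CPM in WT mock. The summed level of the 9 seed markers was itself higher in the mutant, at 91820 to 117000 CPM in *dog1-3* NaCl, against 46990 to 70170 CPM in WT NaCl, and at 74800 to 88660 CPM in *dog1-3* mock, against 33160 to 57390 CPM in WT mock. CPM are counts relative to the library size after scaling with edgeR's TMM method. In RNA from whole seeds, fewer cells of a type and less RNA per cell cannot be told apart. Reverse transcription reactions of mock and NaCl seeds were pooled separately, so that pool and treatment cannot be told apart in any comparison of NaCl with mock, whereas the genotypes shared a pool within each treatment.

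The DOGL genes lie in tandem on chromosome 4, within 19835 bases of the TAIR10.1 assembly, while *DOG1* lies alone on the minus strand of chromosome 5 at chr5:18589418-18591506. *DOGL4* is on the minus strand at chr4:10263969-10265439. *DOGL1* (chr4:10273480-10274872), *DOGL2* (chr4:10281033-10281740) and *DOGL3* (chr4:10282762-10283803) are on the plus strand, each annotated with 1 exon. *DOGL2* and *DOGL3* are 1021 bases apart and are the closest pair, with 83.3% identity over their aligned coding bases, against 58.9% to 69.9% for the other pairs of the family. No 50-base stretch of any exon of the 5 genes occurred a further time in the genome as an exact match. The read length is not given in the sources used here, and the placement of reads was not tested. The longest run that *DOGL2* and *DOGL3* share has 35 bases and lies in the coding sequence of both, at chr4:10281576-10281610 and chr4:10283415-10283449 on the plus strand. It is shown because it is the stretch where the pair is hardest to separate.
DOGL2 and DOGL3, shared run: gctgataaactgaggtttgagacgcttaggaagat

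**Figure D1:**
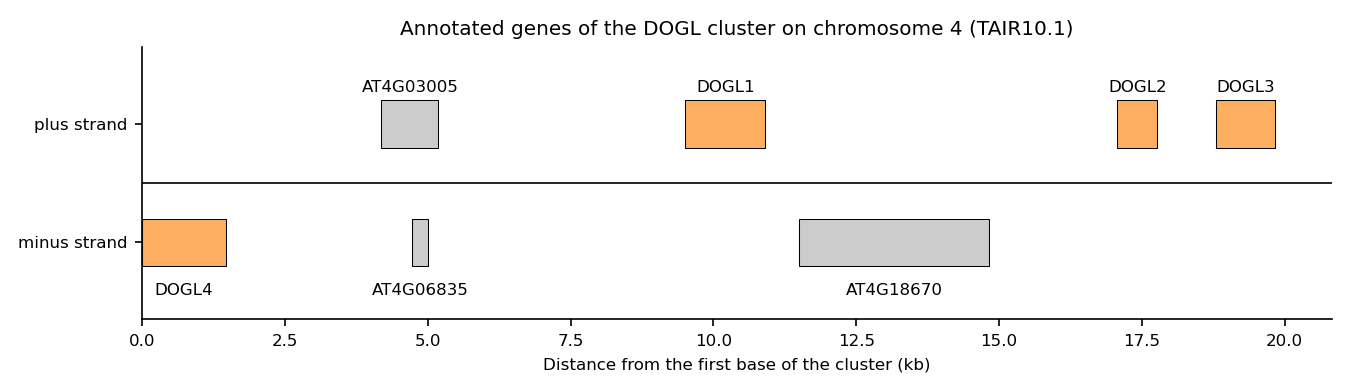
Annotated genes of the DOGL cluster, drawn to scale on the plus strand (above the line) and the minus strand (below the line), with the distance from the first base of the cluster in kb on the x axis. Orange boxes are the DOGL genes and grey boxes the other annotated genes, and DOGL2 and DOGL3 stand side by side at the right end of the 19835 bases.

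The annotation of *DOGL2* holds coding bases only and no UTR. In 3'RNA-seq, reads gather at the 3′ ends of transcripts, so that reads beyond the annotated end of *DOGL2* may not have been counted if the counting used such a model, which is not given in the sources used here. The level of *DOGL2* was therefore compared between groups only. None of the 5 genes overlaps another annotated gene. The paper on these libraries reports unannotated sense transcripts that start upstream of *DOG1*, can end inside its exons and rise with salt. It also describes an antisense transcript at the 3′ end of *DOG1*. The counts of *DOG1* may include such RNA, which was not tested.

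The 250 bases before the annotated start of each DOGL gene are printed to show the motifs that some share, 5′ to 3′ on the strand of the gene. For *DOGL2*, which has no annotated UTR, that start is the first coding base, so its window may include transcribed bases. Capitals mark the RY core CATGCA, bound by the B3 factors of seed maturation, and the ABRE core ACGTG, bound by bZIP factors of the ABA pathway, each on either strand. In *DOGL2* and *DOGL4* copies of the RY core overlap each other. The windows are chr4:10273230-10273479 (*DOGL1*, plus strand), chr4:10280783-10281032 (*DOGL2*, plus strand), chr4:10282512-10282761 (*DOGL3*, plus strand) and chr4:10265440-10265689 (*DOGL4*, minus strand) of TAIR10.1.
DOGL1: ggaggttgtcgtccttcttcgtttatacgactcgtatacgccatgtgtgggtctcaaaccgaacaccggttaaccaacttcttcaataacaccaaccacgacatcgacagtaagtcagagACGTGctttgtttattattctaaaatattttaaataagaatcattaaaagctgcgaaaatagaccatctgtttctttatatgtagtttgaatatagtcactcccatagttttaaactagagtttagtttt
DOGL2: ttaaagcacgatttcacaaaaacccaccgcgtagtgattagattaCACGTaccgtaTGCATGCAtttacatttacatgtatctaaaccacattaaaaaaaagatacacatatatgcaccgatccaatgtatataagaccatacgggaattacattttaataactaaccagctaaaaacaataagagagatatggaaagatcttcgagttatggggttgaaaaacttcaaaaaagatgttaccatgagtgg
DOGL3: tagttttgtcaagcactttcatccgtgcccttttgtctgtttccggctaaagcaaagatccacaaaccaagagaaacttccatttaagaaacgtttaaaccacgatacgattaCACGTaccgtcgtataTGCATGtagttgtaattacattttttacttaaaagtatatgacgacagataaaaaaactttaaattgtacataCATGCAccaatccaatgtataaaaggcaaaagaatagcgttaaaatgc
DOGL4: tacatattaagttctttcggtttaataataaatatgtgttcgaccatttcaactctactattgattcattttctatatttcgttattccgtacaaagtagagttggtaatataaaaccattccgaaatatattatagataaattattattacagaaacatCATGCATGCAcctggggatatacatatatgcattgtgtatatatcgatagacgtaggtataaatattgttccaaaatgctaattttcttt

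An RY core stood before *DOGL2*, *DOGL3* and *DOGL4*, 3 of the 5 genes, and in 8.43% of the same windows of 27443 protein-coding genes. An ABRE core stood before *DOGL1*, *DOGL2* and *DOGL3*, again 3 of the 5 genes, and in 22.9% of all windows. The *DOGL2* and *DOGL3* windows have the same order of motifs, with an ABRE core on the minus strand followed by RY cores. The G-box CACGTG, which contains the ABRE core, was before 0 of the 5 genes and in 6.49% of all windows. The window before *DOG1* (chr5:18591507-18591756, minus strand) held none of these letters. These matches describe the windows only.

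The first question was how the family differs between *dog1-3* and WT. DOGL genes were higher in *dog1-3*, and *DOG1* was lower. In mock, *DOGL1*, *DOGL3* and *DOGL4* were called up and *DOG1* was called down, where a call is an adjusted p under 0.05 from edgeR's quasi-likelihood test and a change of more than 1.5-fold. Of all 12697 genes, 9.94% were called up and 8.44% down in this comparison. In NaCl, *DOGL4* was called up and *DOG1* down, with 8.16% of all genes called up and 7.54% down. At the adjusted p alone, all 4 DOGL genes were higher in *dog1-3* in both treatments, as were 18.5% of all genes in mock and 15.0% in NaCl. For *DOGL2* this did not hold under library size alone, or in NaCl without any of several single libraries.

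**Figure D2:**
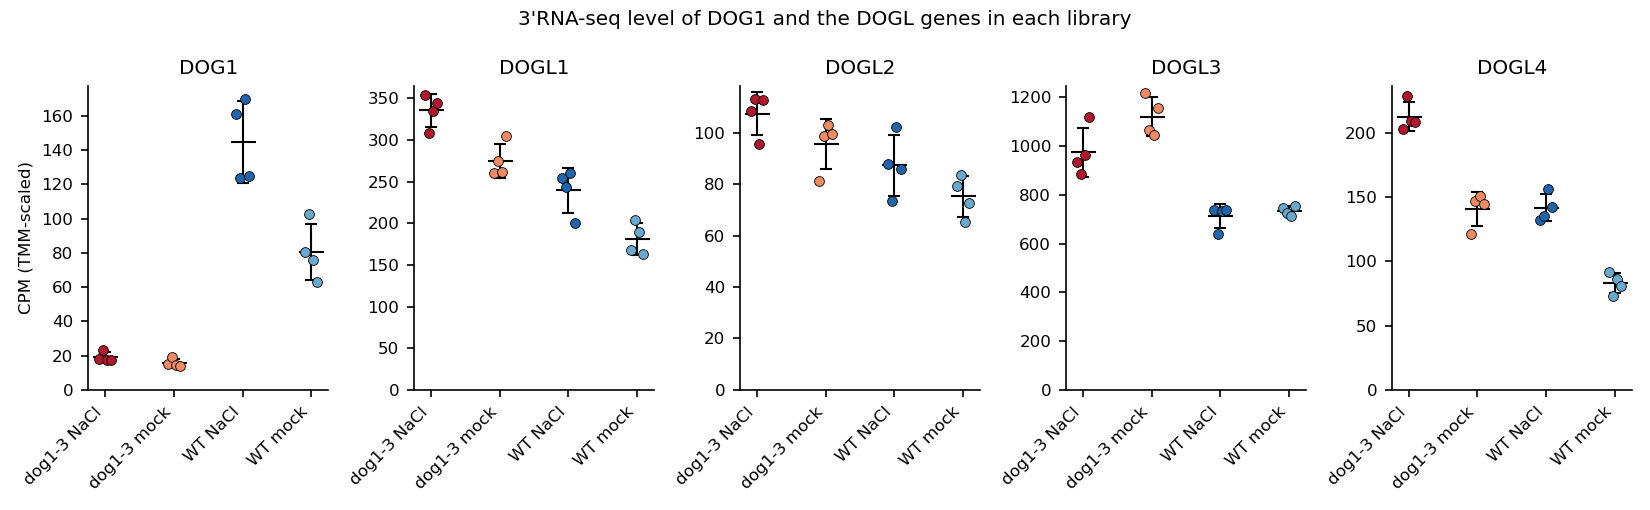
Level of each gene in CPM (y axis, linear, from 0) in the 4 libraries of each group (x axis). Points are libraries, and bars are the mean ± SD of 4 libraries. DOGL1, DOGL3 and DOGL4 sit higher in dog1-3 than in WT within each treatment with no overlap, and DOG1 sits far lower. The share of all genes without overlap was not counted.

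*DOG1*, the gene disrupted in the mutant, kept a low level of counts there. In NaCl it had 17.8, 23.5, 17.2 and 17.3 CPM in *dog1-3* libraries, against 161, 124, 170 and 125 CPM in WT libraries. In mock it had 14.9, 19.0, 14.3 and 14.2 CPM in *dog1-3* libraries, against 80.5, 103, 75.8 and 63.1 CPM in WT libraries. No *dog1-3* library reached the lowest WT library, which fits the genotype labels of all 16 libraries. The mutant libraries rested on 22 to 51 counts each, above the limit of 3 counts taken for detection.

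*DOGL1* was higher in the mutant under both conditions. In NaCl it had 354, 308, 335 and 345 CPM in *dog1-3* libraries, against 255, 244, 260 and 201 CPM in WT libraries. In mock it had 261, 275, 261 and 304 CPM in *dog1-3* libraries, against 168, 204, 190 and 163 CPM in WT libraries. The genotypes did not overlap in either treatment (p = 0.0286 by a two-sided exact permutation test). That p cannot go lower with 4 libraries on each side, and it was 0.0429 adjusted over 30 such tests. The share of all genes whose groups separate in this way was not counted, for genotype or for salt. At an adjusted p under 0.05 from edgeR with any fold, 28.6% of all genes differed between the genotypes in NaCl and 35.4% in mock. The log2 fold change (log2FC) of *dog1-3* against WT was 0.49 in NaCl (95% interval 0.31 to 0.66, adjusted p = 3.09e-05 from edgeR) and 0.60 in mock (0.43 to 0.78, adjusted p = 4.30e-07). The call in mock sat close to the 1.5-fold limit and was lost at log2FC of 0.58 without WT mock replicate 1, 0.56 without WT mock replicate 4 and 0.55 without *dog1-3* mock replicate 4. It was also lost at 0.43 with library size alone and 0.57 with a minimum count of 30.

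*DOGL2* showed the smallest differences between the genotypes in the family. In NaCl it had 108, 113, 95.8 and 113 CPM in *dog1-3* libraries, against 87.9, 73.5, 103 and 86.0 CPM in WT libraries. In mock it had 81.5, 98.9, 103 and 99.7 CPM in *dog1-3* libraries, against 79.4, 83.8, 65.2 and 72.8 CPM in WT libraries. The genotypes overlapped by a single library in each treatment, with 3 of 4 *dog1-3* libraries above all WT libraries (p = 0.0571 in each by the two-sided exact permutation test). In the fit over all genes *DOGL2* rose in *dog1-3* by a log2FC of 0.30 in NaCl (0.087 to 0.51, adjusted p = 0.0282 from edgeR) and 0.35 in mock (0.15 to 0.55, adjusted p = 0.00453). Neither change reached 1.5-fold. In NaCl the adjusted p was above 0.05 without WT NaCl replicate 2 (0.128) or 4 (0.0524), or without *dog1-3* NaCl replicate 1 (0.0608), 2 (0.0781) or 4 (0.064). With counts scaled by library size alone the log2FC was 0.07 in NaCl (adjusted p = 0.625 from edgeR) and 0.18 in mock (adjusted p = 0.144).

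*DOGL3* was higher in *dog1-3* in both treatments, with a call in mock only, and it was not called for salt in either genotype. In NaCl it had 934, 884, 965 and 1118 CPM in *dog1-3* libraries, against 738, 641, 736 and 739 CPM in WT libraries. In mock it had 1218, 1067, 1045 and 1156 CPM in *dog1-3* libraries, against 745, 726, 715 and 754 CPM in WT libraries. Every *dog1-3* library, from either treatment, lay above every WT library. The share of all genes that separate in this way was not counted. At an adjusted p under 0.05 from edgeR with any fold, 28.6% of all genes differed between the genotypes in NaCl and 35.4% in mock. The log2FC of *dog1-3* against WT was 0.45 in NaCl (0.29 to 0.61, adjusted p = 3.15e-05 from edgeR) and 0.61 in mock (0.45 to 0.77, adjusted p = 7.26e-08). The call in mock was lost at a log2FC of 0.56 without *dog1-3* mock replicate 1. It was also lost at 0.44 with library size alone and 0.58 with a minimum count of 30.

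*DOGL4* had the largest log2FC of the DOGL genes in the mutant, with intervals that overlapped those of *DOGL1* and *DOGL3* in both treatments. In CPM, *DOGL3* and *DOGL1* rose by more than *DOGL4* did. In NaCl it had 203, 229, 209 and 209 CPM in *dog1-3* libraries, against 132, 136, 156 and 143 CPM in WT libraries. In mock it had 121, 147, 151 and 145 CPM in *dog1-3* libraries, against 91.7, 73.2, 86.4 and 80.8 CPM in WT libraries. The genotypes did not overlap in either treatment. The log2FC was 0.59 in NaCl (0.41 to 0.76, adjusted p = 1.11e-06 from edgeR) and 0.77 in mock (0.59 to 0.95, adjusted p = 3.54e-09). The value in NaCl lay just past the 1.5-fold limit, and the call was lost at 0.55 without WT NaCl replicate 1, 0.57 without WT NaCl replicate 2 and 0.55 without *dog1-3* NaCl replicate 2. It was also lost at 0.35 with library size alone and 0.58 without the 20 genes with the highest counts. A minimum count of 30 or only the 2 groups compared gave 0.57 each, also without a call.

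Most seed markers were also higher in the mutant. Of the 9 seed markers, 8 were called up in *dog1-3* in both treatments. Of all genes, 8.16% were called up in NaCl and 9.94% in mock. The exception among the markers was CRB, a cruciferin, with log2FC of -0.08 in NaCl and -0.18 in mock. EPR1, an endosperm gene, had 25840 ± 2863 CPM in *dog1-3* NaCl against 20040 ± 3168 CPM in WT NaCl, and 30100 ± 3742 CPM in *dog1-3* mock against 17580 ± 2737 CPM in WT mock (SD, n = 4 each). MAN7, the other endosperm marker, had 10.5 ± 1.84 CPM in *dog1-3* NaCl against 11.8 ± 1.01 CPM in WT NaCl, and 15.1 ± 2.47 CPM in *dog1-3* mock against 17.1 ± 4.28 CPM in WT mock. The part of these differences in the levels of the DOGL genes was not tested.

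The second question was how the family responds to salt. *DOGL4* rose with NaCl in both genotypes, *DOG1* was called only in WT, and *DOGL3* did not rise in either genotype. In WT, *DOG1* and *DOGL4* were called up, where 9.46% of all genes were called up and 7.07% down. In *dog1-3*, *DOGL4* alone was called up, where 7.53% of all genes were called up and 7.16% down. At the adjusted p alone *DOGL1* was also higher in both genotypes, as were 18.9% of all genes in WT and 15.3% in *dog1-3*. Under library size alone *DOGL1* in *dog1-3* had a log2FC of 0.11 (adjusted p = 0.323 from edgeR).

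**Figure D3:**
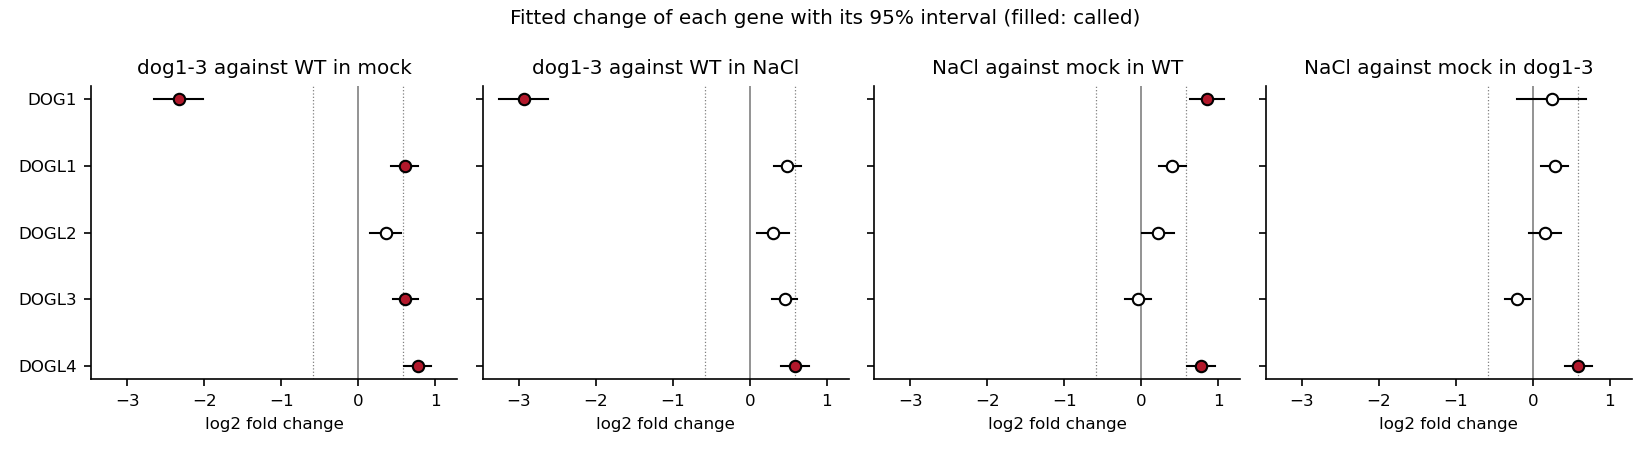
Fitted log2 fold change (x axis) of each gene (y axis) in 4 comparisons, with 95% intervals as bars. Filled points passed both the adjusted p and the 1.5-fold limit, which the dotted lines mark. DOGL4 is filled in every comparison, and DOGL3 lies below 0 in both comparisons of NaCl with mock.

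*DOGL4* averaged 212 ± 11.2 CPM in *dog1-3* NaCl and 141 ± 13.2 CPM in *dog1-3* mock, and 142 ± 10.6 CPM in WT NaCl and 83.0 ± 7.90 CPM in WT mock (SD, n = 4 each). All NaCl libraries lay above all mock libraries within each genotype. The log2FC of NaCl against mock was 0.59 in *dog1-3* (0.41 to 0.76, adjusted p = 1.90e-06 from edgeR) and 0.77 in WT (0.59 to 0.95, adjusted p = 7.50e-09). In *dog1-3* the call was lost at 0.53 without *dog1-3* mock replicate 1 and 0.55 without *dog1-3* NaCl replicate 2. It was also lost with library size alone, no filter on low counts, a minimum count of 30 or only the 2 groups compared. In the order of the levels, *dog1-3* mock and WT NaCl were neighbours and could not be separated (p = 0.971 by the two-sided exact permutation test), while the steps to *dog1-3* NaCl above and WT mock below exceeded the spread.

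*DOGL1* had a smaller fold rise with salt. Its log2FC of NaCl against mock was 0.29 in *dog1-3* (0.11 to 0.46, adjusted p = 0.0111 from edgeR) and 0.40 in WT (0.23 to 0.58, adjusted p = 0.000351). The treatments did not overlap in *dog1-3*, and in WT 3 of 4 NaCl libraries lay above all mock libraries (p = 0.0571 by the two-sided exact permutation test). The order of the levels ran from *dog1-3* NaCl, at 336 ± 19.6 CPM, through *dog1-3* mock, at 275 ± 20.5 CPM, and WT NaCl, at 239.8 ± 27.1 CPM, down to WT mock, at 181 ± 19.4 CPM (SD, n = 4 each). Only the last pair of neighbours overlapped.

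*DOGL2* and *DOGL3* were not called for salt in either genotype. *DOGL2* had a log2FC of 0.16 in *dog1-3* (-0.05 to 0.37, adjusted p = 0.255 from edgeR) and 0.22 in WT (0.012 to 0.42, adjusted p = 0.093). *DOGL3* had a log2FC of -0.20 in *dog1-3* (-0.37 to -0.041, adjusted p = 0.0533) and -0.04 in WT (-0.21 to 0.12, adjusted p = 0.708). The lower value in *dog1-3* had an adjusted p under 0.05 with DESeq2 (0.0385), the replicate block (0.0359), a minimum count of 30 (0.038), only the 2 groups compared (0.0457) and library size alone (0.000569), and without *dog1-3* mock replicate 2 (0.0474) or 3 (0.0449) or *dog1-3* NaCl replicate 4 (0.0119), and it stayed short of 1.5-fold. *DOGL2* in WT had one without WT mock replicate 2 (0.0386) or WT NaCl replicate 2 (0.0356). In each genotype the interval of *DOGL3* lay wholly below that of *DOGL4*. In the order of the levels, *dog1-3* mock (1122 ± 80.2 CPM) and *dog1-3* NaCl (975 ± 101 CPM) overlapped for *DOGL3*, as did WT NaCl (713 ± 48.2 CPM) and WT mock (735 ± 17.8 CPM; SD, n = 4 each). For *DOGL2*, at 95.8 ± 9.71 CPM in *dog1-3* mock and 87.5 ± 11.9 CPM in WT NaCl, each neighbouring pair of groups overlapped. *DOG1* rose in WT by a log2FC of 0.85 (0.63 to 1.07, adjusted p = 1.03e-07), and in *dog1-3* its value was 0.24 with a wide interval (-0.21 to 0.69, adjusted p = 0.451).

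The salt response did not differ detectably between the genotypes for any of the 5 genes. The interaction was called for 0 of 5 by edgeR and by DESeq2, and for 0.00788% of all genes by edgeR. Its log2FC (response in *dog1-3* minus response in WT) was -0.12 for *DOGL1* (-0.36 to 0.13), -0.05 for *DOGL2* (-0.34 to 0.24), -0.16 for *DOGL3* (-0.39 to 0.071) and -0.18 for *DOGL4* (-0.43 to 0.067), with adjusted p from 0.861 to 0.978. The 1 gene with an unadjusted p under 0.05 was *DOG1*, at -0.61 (-1.11 to -0.10, adjusted p = 0.672 from edgeR). These intervals do not show equal responses, since each allows a difference of a size like the smaller salt effects above.

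Ratios of counts between members of the same library do not depend on library scaling, and they were examined after the levels had been seen, so they are given without a test. The log2 ratio of *DOGL4* to *DOGL3* lay between -2.42 and -1.95 in *dog1-3* NaCl, against -3.33 and -2.80 in *dog1-3* mock. It lay between -2.48 and -2.24 in WT NaCl, against -3.31 and -3.02 in WT mock. The treatments were thus separate in both genotypes, while within a treatment the genotypes overlapped.

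**Figure D4:**
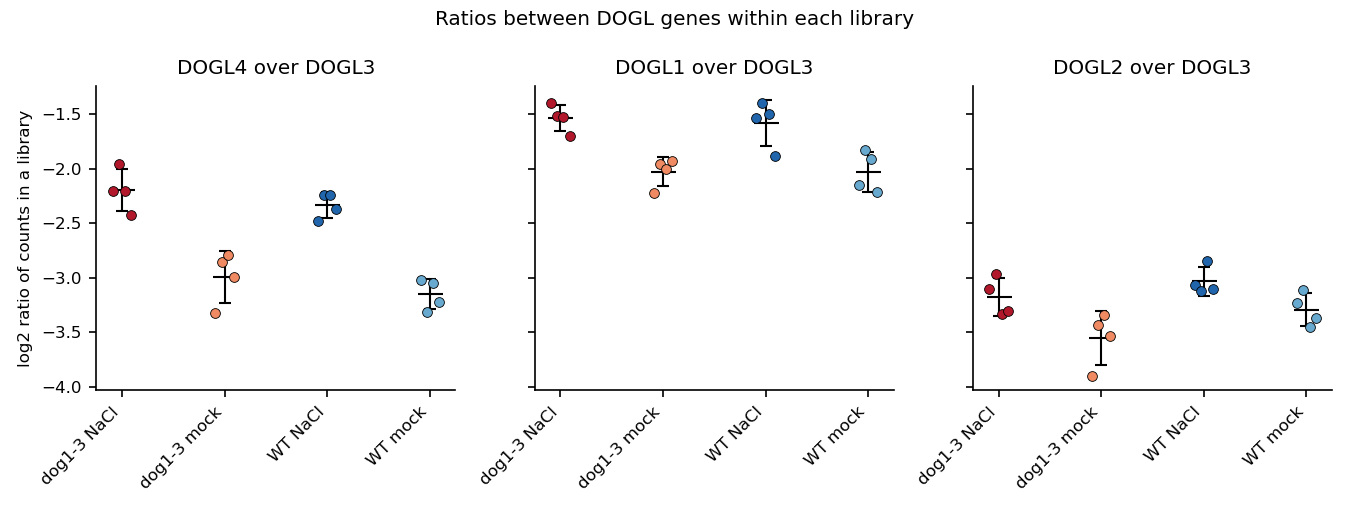
Log2 ratio of the counts of DOGL4, DOGL1 and DOGL2 to those of DOGL3 (y axis) in each library of the 4 groups (x axis). Points are libraries, and bars are the mean ± SD of 4 libraries. For DOGL4 the NaCl libraries of both genotypes sit at -2.48 and above, and the mock libraries at -2.80 and below.

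The ratio of *DOGL1* to *DOGL3* averaged -1.54 ± 0.12 in *dog1-3* NaCl and -2.03 ± 0.13 in *dog1-3* mock, and -1.58 ± 0.21 in WT NaCl and -2.03 ± 0.18 in WT mock (SD, n = 4 each). That of *DOGL2* to *DOGL3* averaged -3.18 ± 0.17 in *dog1-3* NaCl and -3.55 ± 0.25 in *dog1-3* mock, and -3.04 ± 0.13 in WT NaCl and -3.29 ± 0.15 in WT mock. For both ratios the treatments overlapped in WT and not in *dog1-3*. The ratio of *DOG1* to *DOGL4* was near 0 in WT under both conditions, at 0.02 ± 0.22 in WT NaCl and -0.06 ± 0.37 in WT mock.

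The genes with the most similar patterns were sought for each member by Pearson's r of log2(CPM + 1) over the 16 libraries, which share groups and depth, so that r describes likeness only. *DOGL4* was most like AT5G22470, annotated as poly ADP-ribose polymerase 3 (r = 0.98), AT1G49500 (0.98) and AT1G67920 (0.97). *DOGL1* was most like AT1G17830 (0.98), AtLEA4-1, a late embryogenesis abundant protein (0.97), and UP6 (0.97). *DOGL3* was most like AT1G27461 (0.95), AT5G05230 (0.95) and AT1G01250 (0.94). *DOGL2* had weaker partners, led by GA2OX2, a gibberellin 2-oxidase that inactivates gibberellins (0.92), PCAP1 (0.90) and AT1G71980 (0.89). For *DOG1* they were AT5G07735 (0.97), AT4G04205 (0.97) and GRF5, a growth-regulating factor (0.96), and over the 8 WT libraries alone HGO, AT2G46490 and UP6 (0.99 each). Within the family, r was 0.88 for *DOGL1* with *DOGL4*, 0.80 for *DOGL1* with *DOGL2*, 0.47 for *DOGL3* with *DOGL4* and -0.92 for *DOG1* with *DOGL3*. Over the 8 WT libraries alone, r of *DOG1* was -0.20 with *DOGL3*, 0.93 with *DOGL1*, 0.83 with *DOGL4* and 0.78 with *DOGL2*, against -0.63, -0.50 and -0.53 for *DOGL1*, *DOGL4* and *DOGL2* over all 16 libraries.

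Clade A phosphatases, the group that includes the partners of *DOG1*, were called up in *dog1-3* more often than down. Of 10 genes listed, 9 were tested. RDO5, a phosphatase-like protein listed beside the clade A genes, is in these counts and was called up with salt in both genotypes. In mock, 6 were called up in *dog1-3* and 1, ABI1, named after its value was seen, was called down, where 9.94% of all genes were called up and 8.44% down, with a median log2FC of 0.80 beside -0.0089 for all genes. In NaCl, 4 were called up and 0 down, where 8.16% of all genes were called up and 7.54% down, with a median of 0.53 beside -0.0179. With salt 3 were called up in *dog1-3*, where 7.53% of all genes were (median 0.33 beside -0.0165), and 2 in WT, where 9.46% were (median 0.32 beside -0.0019).

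AHG1, which binds *DOG1* and restrains ABA signalling, had 50.8 ± 5.25 CPM in *dog1-3* NaCl against 22.8 ± 4.61 CPM in WT NaCl, and 53.5 ± 0.611 CPM in *dog1-3* mock against 19.2 ± 3.20 CPM in WT mock (SD, n = 4 each). It rose in *dog1-3* in both treatments (adjusted p = 1.82e-08 in NaCl and 1.37e-12 in mock from edgeR). AHG3, the other *DOG1* partner, rose in *dog1-3* by a log2FC of 0.52 in NaCl, short of the 1.5-fold limit, and was called up in mock, at 0.63. HAI3, another clade A phosphatase, rose in *dog1-3* by 0.89 in NaCl and 1.37 in mock. ABI2, an ABA coreceptor phosphatase, rose in *dog1-3* by 1.34 in NaCl and 0.80 in mock, and with salt in *dog1-3* by 0.85. HAB1 was called up in each of the 4 comparisons and is named here after its values were seen.

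RDO5, a phosphatase-like protein required for dormancy, followed salt and not genotype. It had 2799 ± 152 CPM in *dog1-3* NaCl against 1497 ± 86.5 CPM in *dog1-3* mock, and 2739 ± 136 CPM in WT NaCl against 1366 ± 146 CPM in WT mock (SD, n = 4 each). Its log2FC with NaCl was 0.90 in *dog1-3* and 1.00 in WT (adjusted p = 1.42e-10 and 4.90e-12 from edgeR). Between the genotypes it was 0.03 in NaCl and 0.13 in mock (adjusted p = 0.823 and 0.226).

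Of 22 known regulators of *DOG1* listed, 16 were tested, and LEC1 and LEC2 had 0 counts in every library. In *dog1-3* against WT, 0 were called in NaCl and 1 was called up in mock, bZIP67 (log2FC 0.81, adjusted p = 0.027 from edgeR), where 9.94% of all genes were called up. With salt, 0 were called in *dog1-3* and 1 was called up in WT, VAL2 (0.70, adjusted p = 0.00424 from edgeR), where 9.46% of all genes were called up. Both are named after their values were seen. Counts were low, at 4 to 26 in a library for bZIP67 and 10 to 37 for VAL2, where 3 counts were the detection limit. At an adjusted p under 0.05 with any fold, 2 of the 16 passed for genotype in NaCl, where 28.6% of all genes did, and 6 for genotype in mock, where 35.4% did. For salt 1 passed in *dog1-3*, where 28.8% of all genes did, and 4 in WT, where 35.4% did.

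Of 12 other genes whose proteins carry the DOG1 domain, most of them TGA factors of the bZIP family, 10 were tested. TGA9 was lower in *dog1-3* in NaCl (log2FC -0.68, adjusted p = 0.000516 from edgeR) and in mock (-0.59, adjusted p = 0.000194). It was called down in both, as were 7.54% of all genes in NaCl and 8.44% in mock. In NaCl 1 was called up in *dog1-3*, AT3G14880, in mock 1, TGA7, and with salt 1 in WT, TGA10, all named after their values were seen. Each is 1 of 10, beside 8.16%, 9.94% and 9.46% of all genes called up in these comparisons. With salt 0 were called in *dog1-3*, where 1 had an adjusted p under 0.05.

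Most genes around the family had too few counts to test. Of 10 neighbours, 2 were tested. AT4G18670, which lies between *DOGL1* and *DOGL2* on the minus strand, had 9.27 ± 1.83 CPM in *dog1-3* mock against 14.6 ± 0.846 CPM in WT mock (SD, n = 4 each), a log2FC of -0.63 (adjusted p = 0.00982 from edgeR). In mock it was called down, as were 8.44% of all genes. In NaCl its log2FC was -0.35 (adjusted p = 0.274 from edgeR), which was not called. CIPK12, beyond *DOGL3*, was not called in any comparison. AT4G06835, a lncRNA gene inside the cluster that overlaps AT4G03005 on the other strand, had at most 2 counts in a library, and the 4 neighbours of *DOG1* had at most 2. AT4G03005 was not analysed here.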

How the data were processed

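Seeds of *dog1-3* and WT were compared with and without NaCl, 4 libraries a group, by 3'RNA-seq from barcoded oligo(dT) primers. The authors deposited unnormalized counts per locus. The submitters' processing notes name STAR 2.7.8a, DESeq2 and TAIR10, and the counting program, strand setting and use of molecular identifiers are not given in the sources used here. Gene models and sequences are from the RefSeq annotation of TAIR10.1.

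Counts were fitted with edgeR 4.0.16 in R 4.3.3 (TMM, filterByExpr with a minimum count of 10, quasi-likelihood F test, 4 group means, 16 libraries), with Benjamini-Hochberg adjustment over 12697 loci and calls at an adjusted p under 0.05 and over 1.5-fold. This script was tested on simulated data, in which 200 of 12386 genes were changed by a log2FC of 1 in WT NaCl. For salt in WT 162 of them were recovered, with 4 false calls. For the interaction 114 were recovered, with 8 false calls. Depth from 1416354 to 3635844 counts limits precision, and 3 counts were the detection limit. P-values from edgeR set each difference against the spread between these libraries, estimated with all genes and groups together. Chi-square per degree of freedom within groups was 1.60 to 6.66, so no libraries were copies. Replicate numbers did not pair libraries: over 24 same-numbered pairs, r of deviations from group means was -0.064 to 0.094.

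The members and lists were chosen with earlier results of these data known. Named genes were all members, genes of each list called in at least 2 of 4 pairwise comparisons (at most 4 a list, by smallest p), AHG1, AHG3 and neighbours inside the cluster, beside the listed cell type markers. The genes most like each member by r are named as well. LEC1, LEC2 and CIPK12 were named after their values were seen, and other genes named are marked so in the text. The upstream windows of 250 bases, read from the genome, replaced a promoter table that was planned. Alternatives covered DESeq2 1.42.0, scaling, the 20 genes with the highest counts, count filters, the groups fitted, the replicate block, the fold limit and each library left out.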

Additional observations from a re-analysis of the deposited data

Results flagged for a closer look

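Of 20 groups of 4 libraries, 3 held a library far from the others by Dixon's criterion, which chance alone meets in about 1 in 20 groups. *DOG1* was highest in replicate 2 of *dog1-3* NaCl, at 23.5 CPM, where the others had 17.2 to 17.8 CPM. It was also highest in replicate 2 of *dog1-3* mock, at 19.0 CPM, where the others had 14.2 to 14.9 CPM. *DOGL3* was lowest in replicate 2 of WT NaCl, at 641 CPM, where the others had 736 to 739 CPM. Leaving out single libraries in turn, the log2FC of *DOGL3* in *dog1-3* against WT in NaCl stayed between 0.38 and 0.49, and that of *DOG1* between -3.05 and -2.86.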

How the results depend on the processing

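The calls of the DOGL genes near the 1.5-fold limit moved with the settings. For *dog1-3* against WT in NaCl, 2 members were called, against 1 with library size alone, without the 20 genes with the highest counts, with a minimum count of 30 or with only the 2 groups compared, 5 at the adjusted p alone, and 1 to 2 with single libraries left out. For the same comparison in mock, 4 were called, against 2 with library size alone or a minimum count of 30. For NaCl against mock in *dog1-3*, 1 was called, against 0 with library size alone, no filter, a minimum count of 30 or only the 2 groups compared, 2 at the adjusted p alone, and 0 to 1 with single libraries left out. The cause was not tested. Under library size alone the median of all genes was -0.18 (genotype, mock), -0.25 (genotype, NaCl), -0.12 (salt, WT) and -0.19 (salt, *dog1-3*), against -0.0089, -0.0179, -0.0019 and -0.0165 with TMM, and *DOGL2* with salt in *dog1-3* became -0.0122. The *DOGL2* interaction ranged from -0.12 to 0.03 with single libraries left out, and was 0.0054 without WT mock replicate 3 and 0.0255 without WT NaCl replicate 3. DESeq2 and its size factors kept the direction and call of all 25 values of the members.

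With the replicate number as a block, members called were 4 and 2 for genotype in mock and NaCl, 2 and 1 for salt in WT and *dog1-3*, and 0 for the interaction, and no member's call changed. Same-numbered libraries did not deviate together (0 of 24 pairs with r over 0.1, and 6 of 16 libraries closest to their own number). Over all genes, calls for salt in WT were 2099, against 1362 with a minimum count of 30. The adjusted p alone gave 4492 (2334 with the fold limit) for genotype in mock, 3635 (1993) for genotype in NaCl, 4498 (2099) for salt in WT and 3662 (1865) for salt in *dog1-3*. The interaction had 1 call, 17 with no filter and 0 with the replicate block.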
